A study of Mus musculus with 6 samples.

Results

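Skeletal muscle genes were followed through 6 pools of mouse caudal arteries as a measure of striated muscle RNA in the dissected vessels. The set held 38 genes of the 18193 genes that the chip reports with a gene symbol of their own, and each gene was read by its brightest probe set, taken by the mean over the 6 arrays. It was split into 13 genes typical of fast fibres, 9 typical of slow fibres and 16 used by both fibre types. The caudal artery runs along the tail, and its wall is built of smooth muscle. The arteries came from Notch3+/+ mice or from Notch3-/- mice, both 4 weeks old (P28), and the groups differ, as far as the labels say, in Notch3 alone. Strain, sex and the targeted allele are not described in the labels. Each genotype has 3 biological replicates, and each replicate is RNA pooled from the arteries of 4, 3 and 3 mice in Notch3+/+ replicates 1 to 3 and of 4 mice in each Notch3-/- replicate, read on 1 MOE430 2.0 Affymetrix array.

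Skeletal muscle fibres contract by sliding thick myosin filaments along thin actin filaments, a movement switched on when calcium binds troponin. Fast and slow fibres use different genes for the same parts, so that myosin heavy chains, myosin light chains, troponins and myosin-binding proteins exist as fast and slow forms. Calcium is released from the sarcoplasmic reticulum through the ryanodine receptor and pumped back by a fibre-type-specific pump. Arterial smooth muscle uses other genes for most of these parts and has no troponin-based switch, so transcripts of the striated forms in an artery sample are commonly read as a trace of neighbouring muscle. Some of the genes are nevertheless shared with smooth muscle or with non-muscle cells, among them Tpm3 and Ldb3.

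Values below are log2 expression values, and a level of 3.82, the 40th percentile of all probe sets, was the minimum mean for a test. Striated muscle transcripts were readable in every pool, though not all of the defining ones. Of the 38 genes, 30 had a mean above this minimum, including 11 of 13 fast, 9 of 9 slow and 10 of 16 shared genes. The 8 genes below it included Myh4, the fastest myosin heavy chain gene, Mybpc2, the fast myosin-binding protein gene, and the ryanodine receptor gene Ryr1. The others were the nebulin gene Neb, the calcium channel subunit genes Cacna1s and Cacng1, the AMP deaminase gene Ampd1 and the myotilin gene Myot. The highest mean of the 8 was 3.59, and the lowest mean above the minimum was 3.98. Myh4 read 2.43, 2.42 and 2.65 in the Notch3+/+ pools and 2.42, 2.42 and 2.29 in the Notch3-/- pools, a flat profile. Fast myosin was therefore seen through Myh1 and Myh2. The label of skeletal muscle rests on genes above the minimum, but not on all 30 alike. Tpm3 and Ldb3 are shared with smooth muscle or non-muscle cells, and the brightest Tpm3 probe set ranged over only 0.18. Ldb3, Mybpc1 and Trdn had correlations of -0.53, 0.18 and 0.40 with the median of the other muscle genes over the pools. In a bulk sample, fewer muscle cells and less muscle RNA per cell cannot be told apart, and muscle RNA from outside the vessel cannot be told apart from low expression inside it.

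The arrays had medians between 4.50 and 4.57. Notch3-/- replicate 2 stood apart from the rest over all probe sets, at 39.5 on the first principal component against -17.1 to 5.85 for the other pools, so counts by pool are given with and without it. Notch3 itself read 9.94 to 10.09 in the Notch3+/+ pools and 5.87 to 6.51 in the Notch3-/- pools, on the side that each label gives.

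The muscle genes varied together from pool to pool. Taking each gene as its deviation from its own mean over the 6 pools, the median over the 30 genes was 0.15, 0.28 and -0.14 in Notch3+/+ replicates 1, 2 and 3, and -0.29, -0.44 and 0.42 in Notch3-/- replicates 1, 2 and 3. The lowest and the highest pool were thus both Notch3-/- pools, and they lay 0.86 apart on the log2 scale, or 1.81-fold. All 30 genes were above their own mean in Notch3-/- replicate 3, and 27 of 30 were below it in Notch3-/- replicate 2. Notch3-/- replicate 3 held the highest value for 20 of 30 genes, against 12.4% of all 12732 genes tested. Notch3-/- replicate 2 held the lowest value for 18 of 30, against 28.7% of all genes tested. With Notch3-/- replicate 2 left out, replicate 3 held the highest value for 21 of 30 genes (23% of all genes) and Notch3-/- replicate 1 the lowest for 22 of 30 (23.2% of all genes). A range of at least 1 on the log2 scale, 2-fold, was found for 15 of 30 genes, against 3.35% of all genes. In the Notch3+/+ pools replicate 2 exceeded replicate 3 in 26 of 30 genes, against 48.3% of all genes, and replicate 3 held the lowest value of all 6 pools for 2 of 30 (19.8% of all genes).

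**Figure D1:**
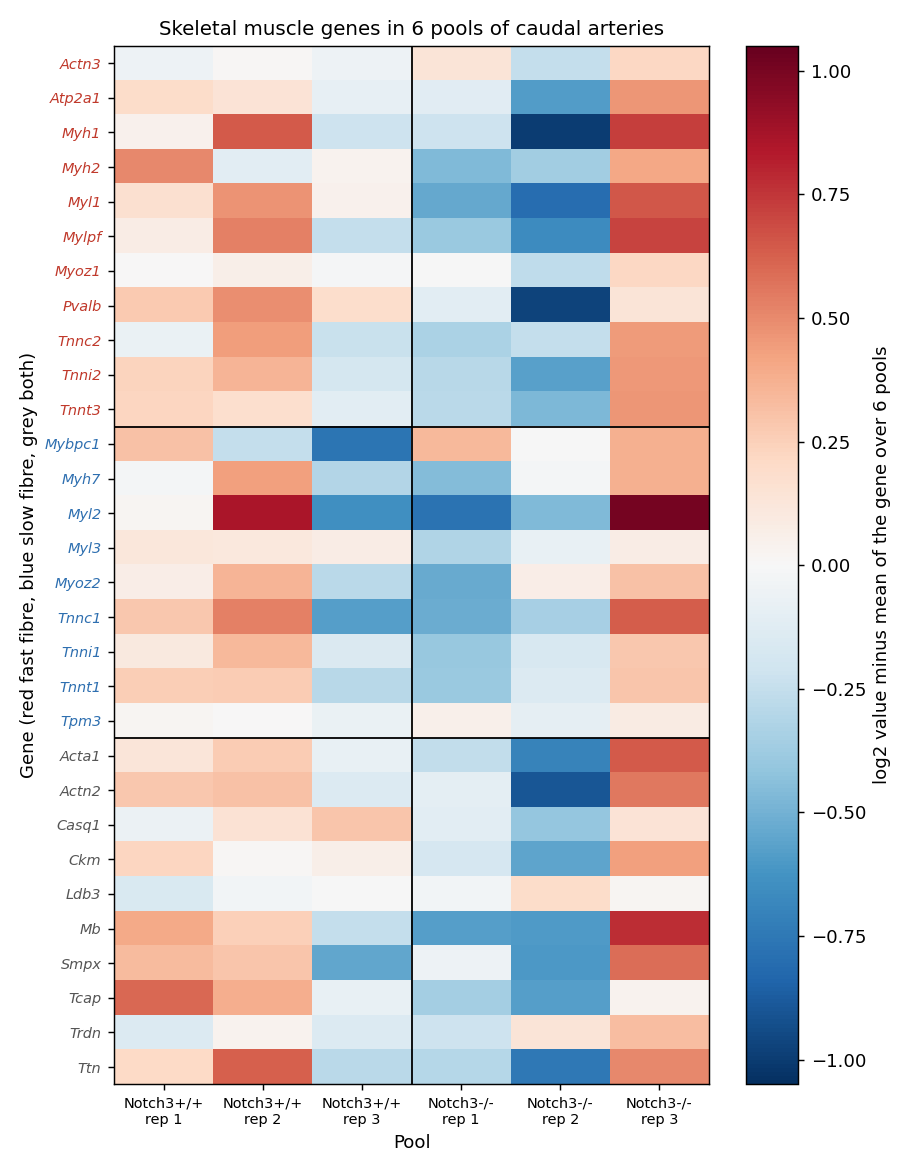
Deviation of each of the 30 muscle genes above the level minimum (rows) from its own mean over the 6 pools (columns, Notch3+/+ left and Notch3-/- right), as log2 colour; horizontal lines separate 11 fast, 9 slow and 10 shared genes. The Notch3-/- replicate 3 column is above 0 in all 30 genes and the replicate 2 column below 0 in 27.

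Pairs of muscle genes had a median Pearson correlation of 0.70 over the 6 pools (435 pairs, 91.7% of them above 0), whereas all pairs among the 12732 genes tested had a median of 0.00. After the genotype means were removed the median over the muscle genes was 0.74. The correlations describe 6 arrays that share the pools and a joint normalization, and they carry no test. The muscle genes were also chosen with earlier results of these data known, so the comparison with all pairs is a description only. The pools of 1 genotype varied more for these genes than for most. The SD over the 3 Notch3-/- pools had a median of 0.49 over the muscle genes and 0.12 over all genes tested, and over the 3 Notch3+/+ pools it was 0.27 and 0.09.

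Promoters of 4 genes are shown because these genes moved with the group (Mylpf, Acta1 and Tnnc1, for the fast, shared and slow genes) or apart from it (Mybpc1). Each window runs from 250 bases before to 50 after the start, read 5′ to 3′ on the gene's strand, from RefSeq on GRCm38.p6. Capitals mark matches on either strand to the E-box CANNTG, to the MEF2 site, to the CArG box or to the TATA box TATAAA.
Mylpf, chr7:127211358-127211657, plus strand: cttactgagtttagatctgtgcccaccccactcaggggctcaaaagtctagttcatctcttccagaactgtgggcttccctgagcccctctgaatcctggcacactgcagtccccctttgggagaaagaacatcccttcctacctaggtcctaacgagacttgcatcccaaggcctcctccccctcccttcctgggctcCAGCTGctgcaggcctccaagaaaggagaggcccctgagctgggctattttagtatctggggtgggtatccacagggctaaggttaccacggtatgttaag
Acta1, chr8:123894726-123895025, minus strand: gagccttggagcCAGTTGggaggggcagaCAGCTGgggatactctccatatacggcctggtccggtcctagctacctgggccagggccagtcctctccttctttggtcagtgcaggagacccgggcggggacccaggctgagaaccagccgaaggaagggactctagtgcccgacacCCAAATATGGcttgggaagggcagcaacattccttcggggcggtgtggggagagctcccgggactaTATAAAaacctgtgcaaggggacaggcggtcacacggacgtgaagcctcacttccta
Tnnc1, chr14:31208062-31208361, plus strand: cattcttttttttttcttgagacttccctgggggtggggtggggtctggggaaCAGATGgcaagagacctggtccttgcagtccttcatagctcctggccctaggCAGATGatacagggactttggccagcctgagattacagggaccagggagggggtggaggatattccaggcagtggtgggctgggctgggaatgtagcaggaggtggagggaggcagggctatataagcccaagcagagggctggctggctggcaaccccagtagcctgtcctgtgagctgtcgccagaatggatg
Mybpc1, chr10:88605103-88605402, minus strand: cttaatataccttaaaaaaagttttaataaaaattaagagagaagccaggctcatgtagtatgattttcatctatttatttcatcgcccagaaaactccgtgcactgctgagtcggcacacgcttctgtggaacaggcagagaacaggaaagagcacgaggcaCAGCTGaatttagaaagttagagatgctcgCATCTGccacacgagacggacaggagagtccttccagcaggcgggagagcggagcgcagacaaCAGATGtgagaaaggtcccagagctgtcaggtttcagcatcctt
Mylpf held 1 E-box, Tnnc1 held 2 and Mybpc1 held 3. Acta1 held 2 E-boxes, 1 CArG box and 1 TATA box. Promoter windows were found for 28 of the 38 genes, 36 windows in all. An E-box was present in 29 of these 36 windows, against 72.3% of all 32851 windows, a CArG box in 5 (1.63% of all windows), a MEF2 site in 2 (0.557%) and TATAAA in 7 (13.6%). Some genes have several windows that overlap in part, so a site can count more than once. By gene, an E-box was found for 23 of 28, a CArG box for 4, a MEF2 site for 2 and TATAAA for 7. No pair of matches overlapped in the 4 windows shown (0 in each), and a match of letters is a description of the window and not a bound site.

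Among the fast genes, the ranges over the pools were widest for Myh1, at 1.72, and for Pvalb, at 1.46. Myh1, the fast myosin heavy chain of type 2X fibres, read 8.21, 8.81 and 7.95 in Notch3+/+ replicates 1 to 3 and 7.95, 7.17 and 8.89 in Notch3-/- replicates 1 to 3. Its range was 3.29-fold, and both extremes were Notch3-/- pools. A second Myh1 probe set ran in parallel, with 6.95 in Notch3-/- replicate 2 and 8.84 in replicate 3; myosin heavy chain genes are near-identical in parts, and whether a probe set also reads a neighbour cannot be told from these files. Mylpf, the fast regulatory light chain, read 7.01, 7.46 and 6.68 in the Notch3+/+ pools and 6.54, 6.27 and 7.64 in the Notch3-/- pools. Myl1, the fast essential light chain, read 7.72, 8.02 and 7.59 against 7.01, 6.75 and 8.20. For both light chains, Notch3-/- replicate 3 lay above all Notch3+/+ pools and the other Notch3-/- pools below them all.

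The fast troponin genes were also highest in Notch3-/- replicate 3, with smaller ranges. Tnni2, the inhibitory subunit, read 5.86, 5.98 and 5.44 in the Notch3+/+ pools and 5.33, 5.05 and 6.08 in the Notch3-/- pools, and had a correlation of 0.99 with the median of the other muscle genes over the 6 pools. Tnnt3, the tropomyosin-binding subunit, ranged over 0.94 and Tnnc2, the calcium-binding subunit, over 0.78. Atp2a1, the calcium pump of fast fibres, read 6.26, 6.21 and 5.98 against 5.95, 5.48 and 6.53. Pvalb, the calcium-buffering parvalbumin of fast fibres, read 5.77, 5.99 and 5.68 against 5.39, 4.53 and 5.63. In contrast to Myh1, Mylpf and Myl1, Pvalb stayed below every Notch3+/+ pool even in Notch3-/- replicate 3. Myh2, the type 2A myosin, ranged over 0.97 and was highest in Notch3+/+ replicate 1, while the Z-disc genes Myoz1 and Actn3 had the narrowest ranges of the fast genes tested, 0.48 and 0.46.

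Slow fibre genes had their high values in the same pools as the fast genes but seldom their lowest value in Notch3-/- replicate 2. Myl2, the slow and cardiac regulatory light chain, had the widest range of all 30 genes, 1.78 or 3.43-fold. It read 5.79, 6.63 and 5.13 in the Notch3+/+ pools and 5.00, 5.31 and 6.78 in the Notch3-/- pools. Tnnc1, the calcium-binding troponin of slow fibres, read 5.97, 6.21 and 5.11 against 5.16, 5.34 and 6.32. Both genes were high in Notch3+/+ replicate 2 and Notch3-/- replicate 3 and low in Notch3+/+ replicate 3 and Notch3-/- replicate 1. Myh7, the slow myosin heavy chain, read 5.22, 5.67 and 4.93 against 4.78, 5.22 and 5.61. The slow troponin gene Tnni1 read 5.23, 5.47 and 4.98 against 4.73, 4.96 and 5.41. Its partner Tnnt1 ranged over 0.68, the Z-disc gene Myoz2 over 0.89 and the essential light chain gene Myl3 over 0.44.

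Set side by side, the fibre types lay furthest apart in 1 pool. The median deviation of the 11 fast genes was 0.17, 0.36 and -0.09 in the Notch3+/+ pools and -0.28, -0.57 and 0.46 in the Notch3-/- pools, and that of the 9 slow genes was 0.10, 0.34 and -0.29 and then -0.40, -0.09 and 0.31. The fast median minus the slow median lay between 0.02 and 0.20 in 5 pools and at -0.48 in Notch3-/- replicate 2. In that pool 9 of 11 fast genes and 8 of 10 shared genes had their lowest value, but 1 of 9 slow genes did. Replicate 2 read below replicate 1 of Notch3-/- in 9 of 11 fast, 8 of 10 shared and 2 of 9 slow genes, or 19 of 30 in all, against 50.1% of all genes. The slow genes were lowest in Notch3-/- replicate 1 instead (6 of 9, against 16.7% of all genes). Among the 6 was Myl3, whose probe sets disagreed. A dimmer one above the level minimum read 3.98, 4.17 and 4.02 against 4.02, 3.88 and 4.17, lowest in Notch3-/- replicate 2. Another, below the minimum, was lowest in Notch3-/- replicate 1 (3.04). Pairs of 1 fast and 1 slow gene had a median correlation of 0.65, below the 0.84 of fast pairs and the 0.71 of slow pairs. This difference between the fibre types rests on the pool that stood apart over all probe sets, and the part of that array in it was not tested. The slow median also includes Tpm3, nearly flat by its brightest probe set (range 0.18), and Mybpc1, which did not follow the other slow genes.

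**Figure D2:**
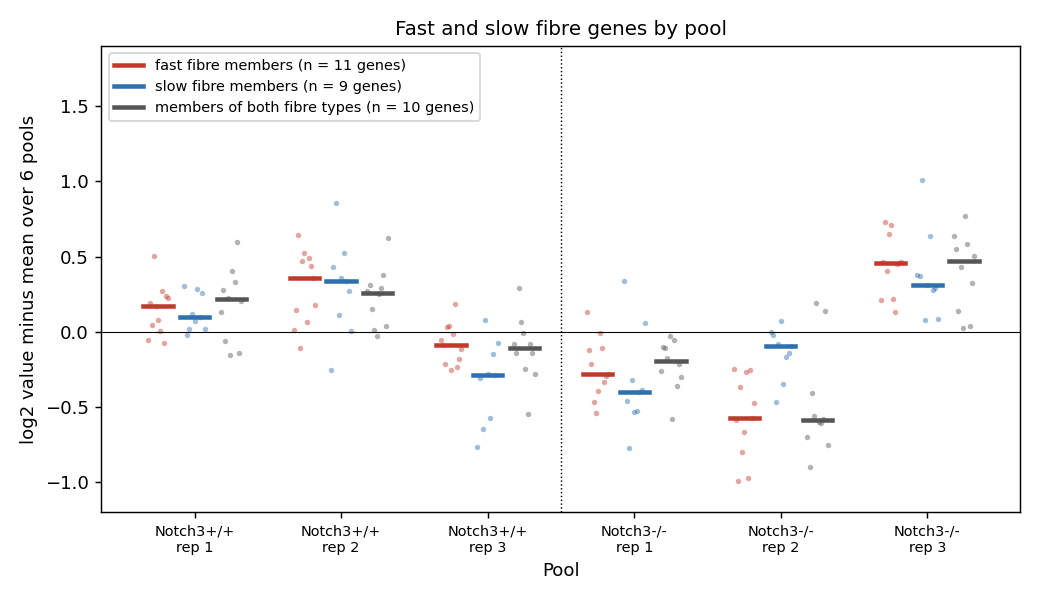
Deviation from the mean over 6 pools (log2) for 11 fast (red), 9 slow (blue) and 10 shared (grey) genes in each pool; dots are genes and bars are medians. In Notch3-/- replicate 2 the fast and shared medians are -0.57 and -0.59 and the slow median is -0.09.

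Mybpc1, the slow form of myosin-binding protein C, did not follow the other slow genes. It read 7.35, 6.79 and 6.28 in the Notch3+/+ pools and 7.38, 7.04 and 7.42 in the Notch3-/- pools, and its correlation with the median of the other genes was 0.18. Its other probe sets ran the same way, with genotype differences of 0.36 and 0.48 beside 0.47 for the brightest. All 3 Mybpc1 probe sets were lowest in Notch3+/+ replicate 3. The other genes with a correlation under 0.5 were Ldb3 (-0.53) and Trdn (0.40), whose product triadin anchors calsequestrin at the release channel.

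Genes used by both fibre types had median deviations of 0.22, 0.26 and -0.11 in the Notch3+/+ pools and -0.20, -0.59 and 0.47 in the Notch3-/- pools. Acta1, the skeletal alpha-actin, read 9.05, 9.19 and 8.84 in the Notch3+/+ pools and 8.66, 8.22 and 9.56 in the Notch3-/- pools. Ckm, the muscle creatine kinase that regenerates ATP, read 6.23, 6.02 and 6.07 against 5.83, 5.45 and 6.44. Mb, the oxygen store myoglobin, read 6.25, 6.10 and 5.60 against 5.27, 5.25 and 6.62. By the brightest probe set, Notch3-/- replicate 3 was the highest pool in all 3 and the other Notch3-/- pools were the lowest. Dimmer probe sets of Ckm and Mb above the level minimum did not share this order. The dimmer Ckm probe set read 4.12, 4.04 and 3.89 against 3.70, 3.94 and 3.82. That of Mb read 4.47, 4.36 and 4.58 against 4.43, 4.36 and 4.36. Actn2, the Z-disc crosslinker alpha-actinin 2, read 5.42, 5.45 and 5.00 against 5.04, 4.24 and 5.69. Ttn, the giant spring protein titin, read 6.29, 6.71 and 5.80 against 5.78, 5.33 and 6.59. Smpx, a small muscle protein, ranged over 1.19 and Casq1, the calcium store protein of the sarcoplasmic reticulum, over 0.70. Tcap, the titin cap telethonin, read 6.59, 6.37 and 5.91 against 5.63, 5.41 and 6.03. For Tcap, unlike Acta1, Ckm and Mb, Notch3-/- replicate 3 lay within the Notch3+/+ pools.

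Of the 8 genes below the level minimum, which were not tested, Myot, Neb, Ryr1, Cacng1 and Ampd1 were also highest in Notch3-/- replicate 3. Myot, a Z-disc protein, read 3.53, 3.17 and 3.31 in the Notch3+/+ pools and 2.74, 3.21 and 4.32 in the Notch3-/- pools. Neb, the ruler of the thin filament, read 3.49, 3.33 and 3.19 against 2.96, 3.24 and 3.83. Both were highest in Notch3-/- replicate 3 and lowest in Notch3-/- replicate 1. Ryr1, Cacng1 and Ampd1 ranged over 0.48, 0.38 and 0.58. Cacna1s ranged over 0.60 and Mybpc2 over 0.33, with no high value in that pool.

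Probe sets of Tpm3 and of Ldb3 also disagreed with one another. The brightest of 5 Tpm3 probe sets, a tropomyosin gene with both slow-muscle and widely expressed forms, was flat at 10.23, 10.22 and 10.14 in the Notch3+/+ pools and 10.27, 10.12 and 10.30 in the Notch3-/- pools. A dimmer Tpm3 probe set read 5.11, 5.42 and 5.11 against 4.81, 4.79 and 5.45, and its correlation with the muscle median was 0.95. For Ldb3, a Z-disc linker that smooth muscle expresses too, the brightest probe set read 8.35, 8.48 and 8.50 against 8.48, 8.70 and 8.53. Another Ldb3 probe set read 5.71, 5.75 and 5.55 against 5.55, 5.10 and 5.58, with its lowest value in the pool where the brightest was highest. Which transcript form each probe set reads is not given in the files. The 2 readable Ttn probe sets, by contrast, kept 1 order, with correlations of 0.97 and 0.94 with the muscle median.

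**Figure D3:**
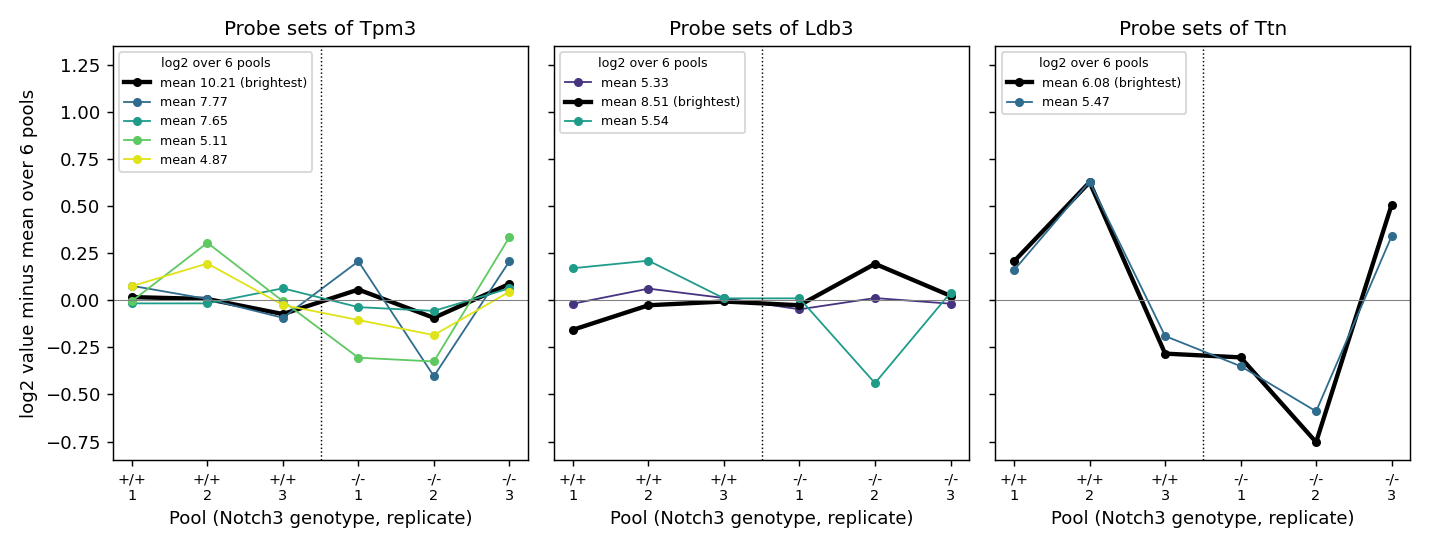
Deviation from the mean over 6 pools (log2) of each probe set above the level minimum for Tpm3 (5 probe sets), Ldb3 (3) and Ttn (2) by pool; thick black lines are the brightest probe sets. The brightest Tpm3 and Ldb3 lines range over 0.18 and 0.35, some dimmer lines of both genes drop in Notch3-/- replicate 2, and both Ttn lines swing together.

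Other genes of skeletal muscle spread less over the pools, although the cells that their transcripts came from cannot be told in bulk RNA. Of 69 further genes of muscle metabolism, membrane and sarcomere assembly, 64 had a probe set and 44 were above the level minimum. Their median deviation was 0.00, 0.12 and 0.07 in the Notch3+/+ pools and -0.02, -0.12 and -0.01 in the Notch3-/- pools, a spread of 0.24 against 0.86 for the 30 genes, and their pairs had a median correlation of 0.18. Notch3-/- replicate 3 exceeded replicate 2 in 30 of these 44 genes and in 29 of the 30, against 47.4% of all genes tested. Correlations of the 44 genes with the muscle median ran from -0.97 to 0.90. The highest was that of Srl, the sarcoplasmic reticulum protein sarcalumenin, named after its values were seen. Srl read 5.71, 5.82 and 5.62 against 5.27, 5.13 and 5.71. Pygm, the muscle glycogen phosphorylase, read 6.80, 6.87 and 7.16 against 6.56, 6.15 and 6.49, with its highest value in Notch3+/+ replicate 3. Genes of muscle precursors were mostly unread: 7 of 9 myogenic regulator and satellite cell genes lay below the minimum, among them Pax7, Myf5, Myod1 and Myog.

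Markers of other cell types moved differently over the pools, and their part in the muscle values was not tested. The 7 smooth muscle markers had median deviations from -0.06 to 0.18 in the Notch3+/+ and -0.03 to 0.02 in the Notch3-/- pools. Of 8 cardiac markers 5 were below the minimum, including the heart myosin gene Myh6 at 2.06 to 2.26. The remaining 3 had median deviations from -0.23 to 0.25 and from -0.18 to -0.03. The 4 readable tendon markers ran from -0.21 to 0.11 and from 0.07 to 0.11, and the 8 fibroblast markers from -0.07 to 0.01 and from 0.02 to 0.08. Schwann cell markers, at -0.34, and endothelial markers, at -0.22, shared the low value of the muscle genes in Notch3-/- replicate 2. Adipocyte markers were highest there, at 0.24. The 7 mast cell markers spread over 1.58, more than the muscle genes, with their lowest value of -0.88 in Notch3+/+ replicate 3 and their highest of 0.70 in Notch3-/- replicate 1.

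**Figure D4:**
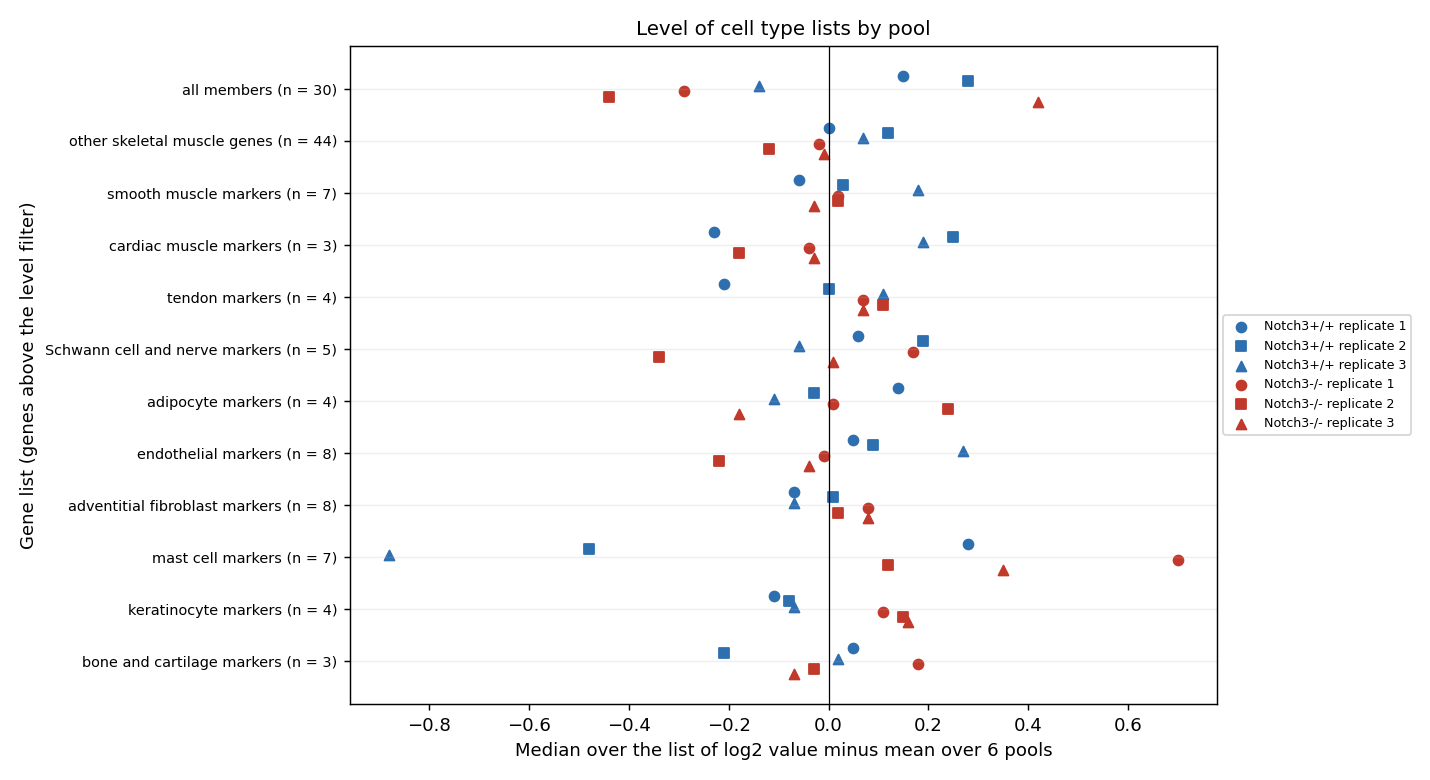
Median deviation from the mean over 6 pools (log2) of 12 gene lists in each pool (blue Notch3+/+, red Notch3-/-; circle, square and triangle are replicates 1, 2 and 3). The muscle genes span -0.44 to 0.42 with both ends in Notch3-/- pools, and the smooth muscle markers span -0.06 to 0.18.

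Among 411 further genes tested whose values ranged over at least 1 on the log2 scale, the 10 with the highest correlation with the muscle median over the 6 pools reached 0.692 to 0.790. They were Gpc3, a cell-surface proteoglycan gene (0.790), Cpeb1, Hnrnpl, Gatd1, Otub1, Podxl2, Eno3, Btg2, Dmrt2 and the syndecan gene Sdc4. Eno3, the muscle enolase, was 1 of 3 genes of the further muscle list that were compared, and the other 9 belonged to none of the gene lists. Of the 10, 9 were lowest in Notch3-/- replicate 2, the pool that stood apart over all probe sets, against 28.7% of all genes tested. In Notch3-/- replicate 3, 4 were highest, against 12.4%. Both counts follow in part from the choice by correlation, since the muscle median was lowest and highest in these pools. Gpc3 read 8.66, 8.35 and 7.81 in the Notch3+/+ pools and 8.21, 7.25 and 8.46 in the Notch3-/- pools, with the low value but not the peak of the muscle genes.

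Between the genotypes, no muscle gene passed the test. With limma across 27027 probe sets, Benjamini-Hochberg adjustment and a threshold of 0.05, 0 of 30 genes were called, against 0.322% of all genes tested (0.196% higher and 0.126% lower in Notch3-/-). The lowest adjusted p was 0.363. An unadjusted p under 0.05 was found for 2 of 30 muscle genes, against 11.9% of all genes. Most differences were nonetheless below 0: 25 of 30 genes read lower in Notch3-/- and 5 higher, with a median of -0.19, while 50.5% of all genes read lower and their median was 0.00. The 25 are not independent of one another, since the genes moved together over the pools. Over all 38 genes, 30 read lower and the median was -0.16. The median over the genes above the minimum moved with single pools of both genotypes. Leaving out Notch3-/- replicate 1, 2 or 3 gave -0.07, 0.00 or -0.45, and leaving out Notch3+/+ replicate 1, 2 or 3 gave -0.14, -0.07 or -0.31. Array weights down-weight Notch3-/- replicate 2 (0.29) and up-weight Notch3-/- replicate 3 (3.04) and Notch3+/+ replicate 2 (2.94). With them the median was 0.09 and 16 of 30 genes had the opposite sign.

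Tcap and Pvalb had the largest differences. The Tcap mean was 6.29 ± 0.35 (SD, n = 3) in wild-type Notch3+/+ pools and 5.69 ± 0.31 (SD, n = 3) in Notch3-/- pools, a difference of -0.60 (SE 0.21, 95% interval -1.09 to -0.11, limma adjusted p = 0.363). Pvalb averaged 5.81 ± 0.16 (SD, n = 3) and 5.18 ± 0.58 (SD, n = 3), a difference of -0.63 (SE 0.26, 95% interval -1.24 to -0.02, limma adjusted p = 0.432). Pvalb was the 1 gene of 30 whose pools did not overlap between genotypes, against 17.3% of all genes. Myl1 followed with -0.46 (SE 0.35) and Mybpc1, in the other direction, with 0.47 (SE 0.25, limma adjusted p = 0.527). The remaining 26 differences lay between -0.37 for Ttn and 0.17 for Trdn.

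By fibre type, the 11 fast genes had a median difference of -0.23, with 10 below 0, the 9 slow genes one of -0.15, with 7 below 0, and the 10 shared genes one of -0.23, with 8 below 0. Without Notch3-/- replicate 2 these medians were 0.01, -0.08 and 0.04. By role, the medians were -0.22 for 8 thick filament genes, -0.18 for 8 thin filament genes, -0.08 for 8 genes of the Z-disc and titin, -0.21 for 4 genes of calcium release and uptake and -0.23 for the pair Ckm and Mb. The SE of a difference had a median of 0.24 over the muscle genes and 0.10 over all genes tested. For Myh1 the 95% interval ran from -1.28 to 0.64 and for Acta1 from -0.92 to 0.50, so that differences of either sign lie inside both.

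**Figure D5:**
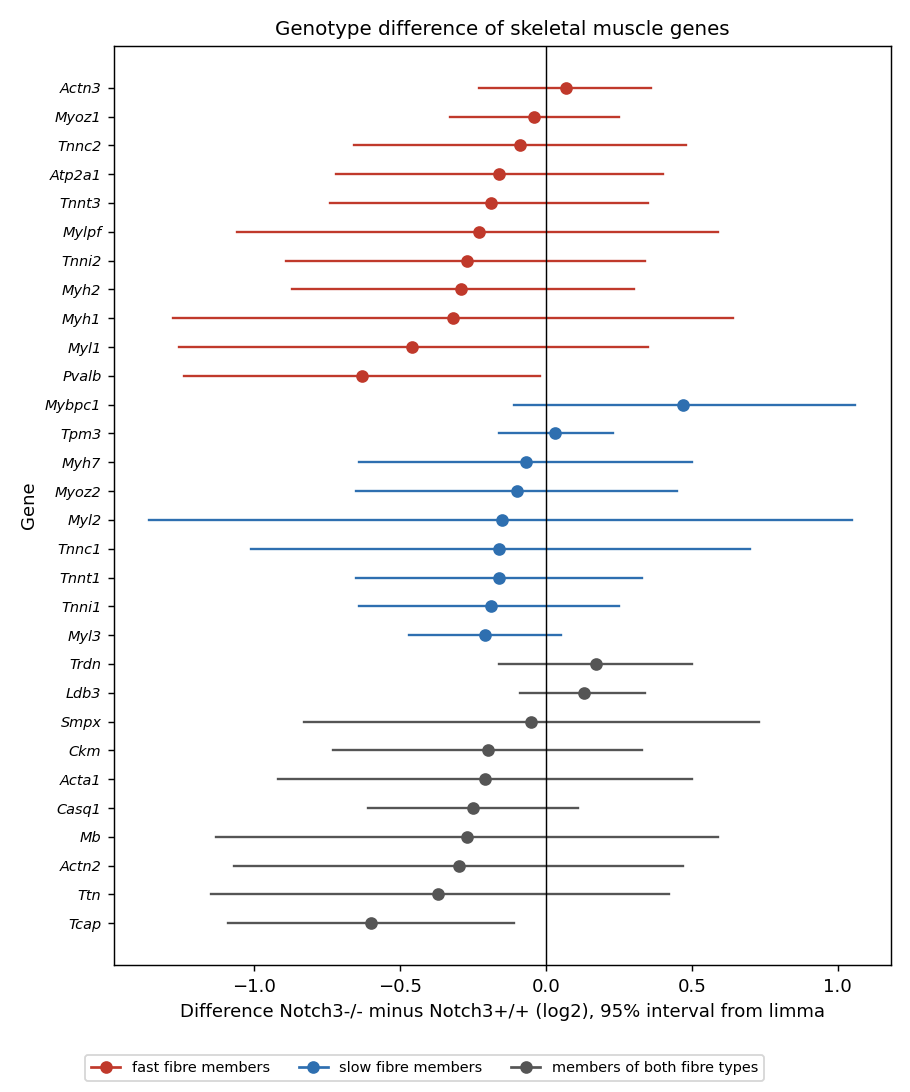
Difference between Notch3-/- and Notch3+/+ arteries (log2, x axis) for 30 muscle genes, with 95% intervals from limma, over 3 pools per genotype; red fast, blue slow, grey shared. Of the 30 points 25 lie left of 0, and 2 intervals (Pvalb, Tcap) leave out 0.

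Among the further muscle genes, 0 of 44 passed with limma, against 0.322% of all genes tested. Lower values in Notch3-/- were found for 33 of 44, against 50.5% of all genes, and the median was -0.12. An unadjusted limma p under 0.05 was found for 11 of 44, against 11.9% of all genes. The 4 with the smallest p were Hrc, a calcium-binding protein of the sarcoplasmic reticulum, at -0.55 (SE 0.12, limma adjusted p = 0.169), the small heat shock protein gene Hspb7 at 0.34, Pygm at -0.54 and the uncoupling protein gene Ucp3 at -0.39. Values of the 2 genotypes did not overlap for 8 of these 44, against 17.3% of all genes.

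Of 9 genes that striated and arterial smooth muscle share, 2 rose and 3 fell, against 0.196% and 0.126% of all genes tested. This list was drawn up with earlier results of these data known, so the count is not a result about shared genes. Casq2, the cardiac and slow calsequestrin, and Des, the intermediate filament protein desmin, rose by 1.62 and 2.01 with limma, and Pln, an inhibitor of the calcium pump, Pgam2, the muscle phosphoglycerate mutase, and Sorbs2, a cytoskeletal adaptor, fell by 2.05, 1.02 and 0.91. Pgam2 read 7.05, 7.29 and 7.50 in the Notch3+/+ pools and 6.40, 6.20 and 6.19 in the Notch3-/- pools. The values 6.20 and 6.19 came from the pools with the lowest and the highest median over the 30 muscle genes. In the same pools Des read 8.21 and 8.75, and Casq2 read 6.18 and 6.21. The slow genes instead had their lowest median in Notch3-/- replicate 1, where Des read 8.30 and Casq2 6.02. These values of Des and Casq2 all lay above every Notch3+/+ pool of their gene. With the median muscle deviation of each pool as a further term in limma, the differences were 1.63 for Casq2 (adjusted p = 0.00459), 2.13 for Des (0.00113), -2.07 for Pln (0.0657), -1.06 for Pgam2 (0.0742) and -0.89 for Sorbs2 (0.135), a fit with 1 fewer degree of freedom. Ankrd1 (1.76), Xirp1 (-0.84), Fhl1 (0.07) and Synpo2 (0.05) did not pass in either fit. The calls of Casq2 and Des held whichever pool was left out. Pln was not called without Notch3+/+ replicate 2 or 3 or Notch3-/- replicate 2 or 3 (limma adjusted p = 0.0924 to 0.139). Pgam2 was called without Notch3+/+ replicate 1 but not without any other pool (limma adjusted p = 0.0593 to 0.244), and Sorbs2 was lost whichever pool was left out (limma adjusted p = 0.0635 to 0.275).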

How the data were processed

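Total RNA of 6 artery pools was hybridised to 1 array each. The authors deposited 1 log2 value for each probe set. The submitters' processing notes name RMA, a method that subtracts background, gives all arrays 1 distribution and combines the probes of a set. No version is stated, and whether a probe set was detected is not recorded. Differences between dim probe sets come out too small after RMA, which bears on the muscle genes of low level. The number of arrays limits the precision.

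Of 45101 probe sets, 64 chip controls were left out. The platform annotation gave 34945 of the rest 1 symbol, 932 several and 9160 none. The 38 genes had 67 probe sets, and 2 more with several symbols were not used. Probe sets with a mean at or above the 40th percentile (3.82) were tested, 27027 in all (12732 of 18193 genes by their brightest probe set), with limma 3.58.1 in R 4.3.3 (lmFit, eBayes, genotype as the only term), two-sided p-values adjusted over all of them. Every adjusted p comes from this tool. The fit was tested on simulated arrays.

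The genes and lists were chosen with earlier results of these data known. All 38 genes are named. From the further muscle list come the 4 smallest p, from the list shared with smooth muscle all, and the 10 most similar genes by correlation. Other lists are given mainly as pool levels. Srl, Myh6, Pax7, Myf5, Myod1 and Myog fall outside this rule and were named after their values were seen. Filters, variance model, normalization, weights, blocks, probe sets and left-out pools were varied.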

Additional observations from a re-analysis of the deposited data

How the results depend on the processing

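With limma, 0 muscle genes were called under the other filters, variance model, normalizations, weights and replicate block, at an adjusted p under 0.10, with the most variable probe set per gene and with each pool left out. They were not counted in the fit with their own median as a covariate or with the mean over probe sets. The median genotype difference of the muscle genes stayed between -0.21 and -0.16 under the filters, normalizations, probe set choices and weights by mice pooled. With array weights it was 0.09, and 16 of 30 genes changed sign. These weights were 0.29 for Notch3-/- replicate 2, 3.04 for Notch3-/- replicate 3 and 2.94 for Notch3+/+ replicate 2. Leaving out 1 pool gave -0.45 (without Notch3-/- replicate 3) to 0.00 (without Notch3-/- replicate 2), with -0.56 to 0.01 for fast, -0.30 to 0.07 for slow and -0.53 to 0.04 for shared genes. The median of the further muscle genes was -0.26 with the filter at the 60th percentile, which tests fewer genes. The median correlation among the muscle genes was 0.63 with no filter, 0.75 with the filter at the 60th percentile, 0.77 with the most variable probe set and 0.75 with the mean over probe sets, and 0.63 to 0.77 when 1 pool was left out. The spread over pools stayed between 0.69 and 1.01.

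Over all probe sets 68 were called, 978 with array weights, 142 at an adjusted p under 0.10, 41 with the median muscle deviation as a covariate (38 of them among the 68), and 13 to 62 when 1 pool was left out. The fewest, 13, were called when Notch3+/+ replicate 2 was omitted. Omitting the third Notch3-/- pool left 17, the third Notch3+/+ pool 23 and the second Notch3-/- pool 37. The cause was not tested, beyond fewer arrays. The replicate numbers are not described as pairs, and same-numbered pools had deviations correlated at 0.24, 0.05 and -0.07; with the replicate number as a block 57 probe sets and 0 muscle genes were called, and Pgam2 (limma adjusted p = 0.0928) and Sorbs2 (0.0654) lost their calls. Ankrd1 passed with arrays centred on the median, with array weights and without Notch3-/- replicate 1, and Xirp1, Hspb7 and Pygm with array weights. The counts of genes highest or lowest in a pool without Notch3-/- replicate 2 were chosen after seeing the data: genes lowest in Notch3-/- replicate 1 went from 9 to 22 and in Notch3+/+ replicate 3 from 2 to 8, since the pool that held most of the lowest values was removed.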
